A study of Mus musculus with 24 samples.

Results

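The genes examined here coat the lipid droplet of the fat cell or break down the triglyceride inside it. They are Plin1, Plin2, Plin4 and Cidec at the droplet surface and Pnpla2, Abhd5, G0s2, Lipe and Mgll in lipolysis, chosen by their symbols, and they are 9 of the 54232 genes in the count table. All of them were found, and all 9 passed the filter of more than 10 counts summed over the 24 libraries. RNA was sequenced from visceral adipose tissue of male C57Bl6 mice aged 10 weeks per the series description, with 1 library per mouse and 6 mice in each of 4 groups. Control and NaKtide mice had sham surgery. PNx and PNx+NaKtide mice had a partial nephrectomy, in which the poles of the left kidney were ligated and the right kidney was removed, a model of uremic cardiomyopathy. Every mouse received a lentivirus by intraperitoneal injection. In the Control and PNx groups it carried GFP, and in the NaKtide and PNx+NaKtide groups it carried GFP together with NaKtide, a peptide from the Na,K-ATPase that inhibits the kinase Src. Expression was driven by the adiponectin promoter, which is active in adipocytes, so no group was free of virus or of GFP.

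Triglyceride in the white fat cell is kept in a single large droplet. Perilipin 1, encoded by Plin1, covers that droplet and at rest holds the co-activator ABHD5 away from the lipase ATGL, the product of Pnpla2. Catecholamine signalling through cyclic AMP releases the co-activator, ATGL removes the first fatty acid, hormone-sensitive lipase (Lipe) the second and monoacylglycerol lipase (Mgll) the last, leaving glycerol. G0s2 encodes a small protein that inhibits ATGL. Cidec fuses small droplets into large ones, Plin4 coats nascent droplets, and Plin2 coats droplets in most cell types.

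Libraries held 679250 to 2979505 counts. Levels are given as CPM, the count over the library size after TMM scaling between libraries, and 1 count was worth 0.246 to 1.97 CPM. A count of 0 allowed up to 3 counts, or 0.739 to 5.91 CPM (counting error only). Several libraries stood apart. The adipocyte marker list (18 genes, none of the 9, all with counts) summed to a median of 292 CPM over the 24 libraries. NaKtide replicate 6 reached 3310 CPM and PNx replicate 6 reached 5678 CPM for this list, and no other library more than 849 CPM. The epididymis list (15 genes, all with counts) summed to a median of 1260 CPM, above that of the adipocyte list, but PNx replicate 1 had 17.0 CPM of it, NaKtide replicate 6 had 22.6 CPM and PNx replicate 6 had 110 CPM. NaKtide replicate 6 also held 5664 CPM of 10 skeletal muscle markers against a median of 65.7 CPM. PNx replicates 1, 2 and 3 held 1072, 1120 and 1170 CPM of 10 testis germ cell markers, the highest of all libraries, against a median of 556 CPM. They also held 336, 537 and 329 CPM of 8 kidney markers against a median of 48.5 CPM. The other lists summed to 170 to 590 CPM for macrophages, 35.1 to 751 CPM for endothelium, 23.0 to 499 CPM for fibroblast progenitors and 1.17 to 69.2 CPM for brown fat. In a bulk sample, fewer adipocytes and less RNA per adipocyte cannot be told apart.

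How the libraries were counted bears on each value. The kit keeps strand, and the sources used here do not give the strand setting of the counting. Genes whose exons overlap those of an opposite-strand gene made up 16.8% of the table and held 79.9% of all counts (70.2% to 86.5% per library). Counts per kb of mt-Nd6, the lone mitochondrial mRNA of the minus strand, were 67.6 times those of the 12 plus-strand mRNAs (21.0 to 194 times per library). Plin1, Plin2, Cidec, Pnpla2 and G0s2 share no exon base with an opposite-strand gene in the annotation. Plin4 shares 17 bases with Hdgfl2, Mgll shares 167 with Gm26588, Lipe shares 918 with 4732471J01Rik and Abhd5 shares 950 with A730085K08Rik. The partner had more counts than the member in 24 of 24 libraries for Hdgfl2, 4732471J01Rik and A730085K08Rik and in 23 of 24 for Gm26588. What share of a member's counts came from the opposite strand was not tested, for members with or without such an overlap.

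The promoters of 4 members are shown because their transcripts split the PNx group in opposite ways, as described below: Plin1 and Plin4 were low in the libraries in which Pnpla2 and Abhd5 were high. Each is the 250 bases before the RefSeq start on build GRCm38.p6, read 5′ to 3′ on the strand of the gene, with CG dinucleotides in capitals. They lie at chr7:79732777-79733026 (minus strand), chr17:56109783-56110032 (minus strand), chr7:141454938-141455187 (plus strand) and chr9:122351366-122351615 (plus strand).
Plin1: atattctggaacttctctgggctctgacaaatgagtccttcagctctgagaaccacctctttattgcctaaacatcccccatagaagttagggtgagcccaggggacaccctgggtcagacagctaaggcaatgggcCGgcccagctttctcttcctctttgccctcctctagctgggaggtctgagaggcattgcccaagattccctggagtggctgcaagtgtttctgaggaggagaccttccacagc
Plin4: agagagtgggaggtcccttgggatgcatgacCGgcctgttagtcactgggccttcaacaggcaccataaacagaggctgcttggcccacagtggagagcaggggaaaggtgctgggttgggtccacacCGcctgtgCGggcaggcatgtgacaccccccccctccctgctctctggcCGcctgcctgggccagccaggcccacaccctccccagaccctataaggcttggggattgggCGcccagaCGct
Pnpla2: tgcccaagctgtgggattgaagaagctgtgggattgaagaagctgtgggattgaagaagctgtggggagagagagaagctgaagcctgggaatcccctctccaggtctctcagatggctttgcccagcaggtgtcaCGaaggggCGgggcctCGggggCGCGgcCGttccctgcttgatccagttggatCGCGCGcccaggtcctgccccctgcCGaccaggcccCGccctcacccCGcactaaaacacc
Abhd5: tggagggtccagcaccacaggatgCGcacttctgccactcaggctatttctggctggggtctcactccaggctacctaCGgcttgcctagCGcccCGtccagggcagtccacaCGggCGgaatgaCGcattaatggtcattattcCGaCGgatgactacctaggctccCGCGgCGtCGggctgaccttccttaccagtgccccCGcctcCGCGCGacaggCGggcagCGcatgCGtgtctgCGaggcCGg
The Plin1 stretch holds 1 CG, the Plin4 stretch 6, the Pnpla2 stretch 12 and the Abhd5 stretch 22. Over windows of 300 bases (250 before to 50 after the start), 9 of 9 members matched RefSeq with 12 windows. The observed over expected CpG ratio was 0.0862 for Plin1, 0.221 for Plin4 and 0.259 and 0.294 for the starts of Cidec, all below the median of 0.384 over 32851 windows of 27025 genes. It was 0.363 for Plin2, 0.434 for G0s2, 0.563 for Pnpla2, 0.934 for Abhd5 and 0.871 and 1.08 for the starts of Mgll, while Lipe had one start at 0.0748 and another at 0.681. The coat genes thus lay below the median, and the lipolysis genes above it except at a single Lipe start, with Plin2 and G0s2 close to it. This is not the split within PNx, where Mgll and G0s2 were low with Plin1, Plin4 and Cidec, and Plin2 was not. On either strand, AGGTCA, the core letters of nuclear receptor sites, occurred in 2 of 12 member windows (Plin2 and Abhd5) against 16.3% of all windows. TATAAA occurred in 0 of 12 against 13.6% of all windows.

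By assigned counts per length, Cidec and Plin4 led in the Control libraries, and Plin2, also a coat gene, was lowest. How far counts from the opposite strand shaped this order was not tested. On the FPKM scale (fragments per kb of gene, scaled by depth, as deposited), Control medians fell in the order Cidec 15.0, Plin4 11.3, Mgll 8.22, Pnpla2 5.34, G0s2 5.33, Lipe 3.87, Plin1 3.67, Abhd5 0.852 and Plin2 0.598. The ranges of neighbours overlapped at every step of this order but that from Plin1 (1.69 to 5.30) to Abhd5 (0.277 to 1.22). In the PNx group the median order changed, with Pnpla2 at 16.5 and Lipe at 11.8 ahead of Mgll at 6.43, Plin4 at 4.07, Abhd5 at 3.78 and Cidec at 3.11. These PNx medians lie between libraries of different kinds, which the values of each gene show. NaKtide replicate 6 and PNx replicate 6 together held 12865 of the 21097 counts of the 9 genes (61.0%). Their share was 72.8% for Plin1, 70.4% for Plin4, 70.3% for G0s2, 68.2% for Plin2 and 64.5% for Cidec, and lower for the lipases and their partner, at 48.6% for Lipe, 47.5% for Pnpla2, 42.6% for Mgll and 25.6% for Abhd5.

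**Figure D1:**
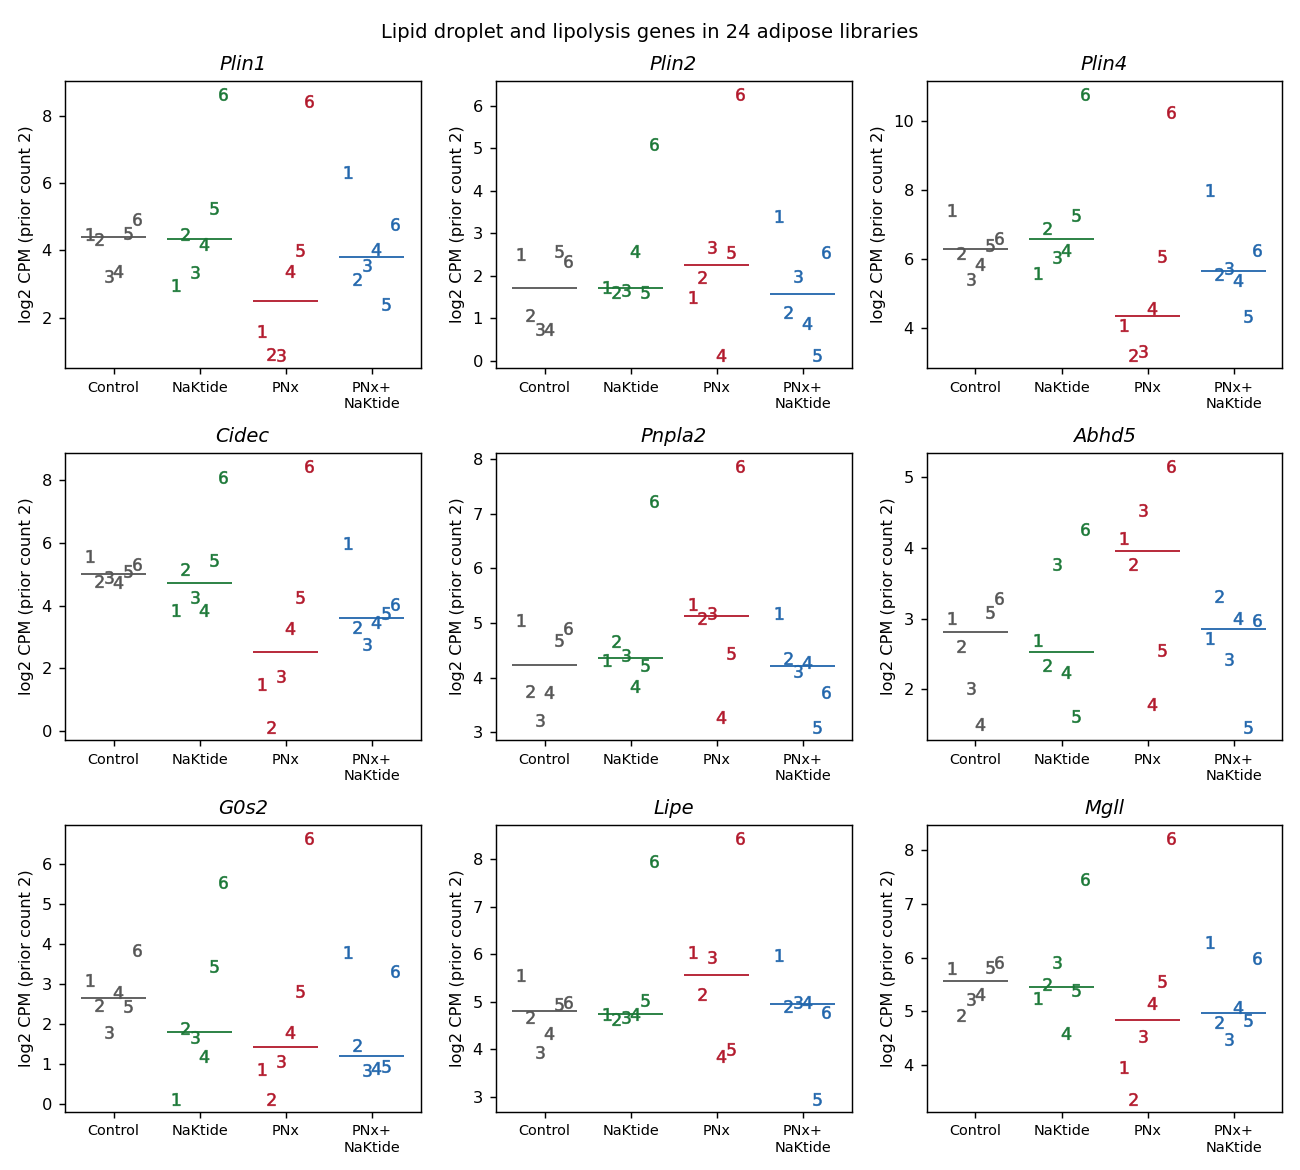
Each panel plots log2 CPM (prior count 2, vertical axis) of 1 gene in the 24 libraries, by group. Digits are replicate numbers and lines are group medians. NaKtide 6 and PNx 6 lie at the top of their groups for all 9 genes, and PNx 1, 2 and 3 lie low for Plin1, Plin4, Cidec and G0s2 but above PNx 4 and 5 for Lipe, Pnpla2 and Abhd5.

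Plin1 (ENSMUSG00000030546, chr7:79720218-79732903, minus strand), the main coat protein of the adipocyte droplet, had 2104 counts in all. Its CPM ran from 8.28 through a median of 20.2 to 29.4 in Control and from 6.76 through 19.1 to 398 in NaKtide. In PNx it ran from 0.757 through 5.70 to 346, and in PNx+NaKtide from 4.16 through 13.03 to 79.7. The groups overlapped, and PNx reached both below and above Control: replicates 1, 2 and 3 held 1.97, 0.808 and 0.757 CPM, below every Control mouse, replicates 4 and 5 held 9.42 and 14.8 CPM, and replicate 6 held 346 CPM. The log2 fold change of PNx against Control was 1.78 ± 1.21 (SE; edgeR BH-adjusted p-value 0.328). Without PNx replicate 6 it was −1.79, and without PNx replicates 1, 2 and 3 it was 2.62, so the direction rested on 1 library.

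Plin4 (ENSMUSG00000002831, chr17:56100591-56109803, minus strand), a perilipin abundant in white fat, had the most counts of the 9, 8574. Control mice held 41.4 to 170 CPM with a median of 77.5, and NaKtide mice 47.3 to 1778 CPM with a median of 96.6. PNx mice held 8.08 to 1241 CPM with a median of 19.3, and PNx+NaKtide mice 19.1 to 255 CPM with a median of 48.9. PNx replicates 1 to 4 (15.8, 8.08, 8.83 and 22.8 CPM) lay below all 6 Control mice, and PNx replicate 6 above them. PNx against Control gave a log2 fold change of 1.39 ± 1.09 (SE; edgeR BH-adjusted p-value 0.396), and −1.83 without PNx replicate 6. Its partner Hdgfl2, which encodes a chromatin protein, had the same libraries at the ends of PNx, where replicates 1, 2 and 3 held 70.2, 73.5 and 77.5 CPM of it and replicate 6 held 1373 CPM, beside a Control range of 296 to 461 CPM. The 17 shared bases lie at the 3′ ends of both genes, and the log2 fold change of Hdgfl2 was −0.02 ± 0.65 (SE; edgeR BH-adjusted p-value 0.991).

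Cidec (ENSMUSG00000030278, chr6:113424634-113435760, minus strand), which enlarges droplets by fusion, had 2108 counts. Control mice held 25.7 to 47.3 CPM (median 31.2) and NaKtide mice 13.3 to 277 CPM (median 26.7). PNx mice held 0 to 351 CPM (median 5.45) and PNx+NaKtide mice 5.72 to 63.1 CPM (median 11.2). Of the PNx mice, 5 of 6 lay below the lowest Control mouse, with 1.72, 0, 2.27, 8.64 and 18.4 CPM in replicates 1 to 5, and the count of 0 in replicate 2 allowed up to 1.21 CPM. Replicate 6 alone, at 351 CPM, set the sign of the log2 fold change of 0.93 ± 1.09 (SE; edgeR BH-adjusted p-value 0.585). Without it the log2 fold change was −2.49 (edgeR BH-adjusted p-value 0.0943), past the threshold of 0.1, where 14.8% of all genes passed, 3.72% lower. Over 35 alternatives the adjusted p-value of this gene ran from 1.63e-04 to 0.664.

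Plin2 (ENSMUSG00000028494, chr4:86648386-86670060, minus strand), the perilipin of small droplets in many tissues, had the fewest counts, 371. It ran from 0.583 to 4.94 CPM in Control (median 2.51), 1.97 to 33.0 in NaKtide (median 2.17), 0 to 76.2 in PNx (median 3.79) and 0 to 9.41 in PNx+NaKtide (median 1.99). Most libraries held a handful of counts, and the zeros in PNx replicate 4 and PNx+NaKtide replicate 5 allowed up to 2.36 and 2.50 CPM. Unlike the other coat genes it was not low in PNx replicates 1, 2 and 3, which held 1.72, 2.83 and 5.30 CPM within the Control range or just above it. The log2 fold change of PNx against Control, 2.51 ± 1.06 (SE; edgeR BH-adjusted p-value 0.160), fell to 0.19 without PNx replicate 6.

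Pnpla2 (ENSMUSG00000025509, chr7:141455198-141460743, plus strand) encodes ATGL, the lipase of the first step, and had 1789 counts. Its CPM was 8.28 to 32.0 in Control (median 18.6), 13.3 to 149 in NaKtide (median 19.6), 8.64 to 234 in PNx (median 34.1) and 7.49 to 35.4 in PNx+NaKtide (median 17.4). PNx replicates 1, 2 and 3 held 39.4, 33.1 and 35.1 CPM, each above the highest Control mouse, in the very libraries where Plin1 was at its lowest. PNx replicates 4 and 5 (8.64 and 20.8 CPM) lay within the Control range. The log2 fold change of PNx against Control was 1.65 ± 0.67 (SE; edgeR BH-adjusted p-value 0.152) and 0.48 without PNx replicate 6. For PNx+NaKtide against PNx it was −1.75 ± 0.67 (SE; edgeR BH-adjusted p-value 0.357).

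Abhd5 (ENSMUSG00000032540, chr9:122351608-122381524, plus strand), the co-activator of ATGL, had 468 counts, and NaKtide replicate 6 and PNx replicate 6 held a smaller share of them than of any other member's. Control mice held 1.75 to 8.70 CPM (median 5.98) and NaKtide mice 1.97 to 18.1 CPM (median 4.69). PNx mice held 2.36 to 34.7 CPM (median 14.5) and PNx+NaKtide mice 1.66 to 8.92 CPM (median 6.16). PNx replicates 1, 2, 3 and 6, with 16.5, 12.5, 22.2 and 34.7 CPM, lay above all 6 Control mice and above all 6 PNx+NaKtide mice, while PNx replicates 4 and 5 held 2.36 and 4.75 CPM. The log2 fold change of PNx against Control was 1.51 ± 0.57 (SE; edgeR BH-adjusted p-value 0.141), the lowest adjusted p-value of the 9 genes, and it stayed positive without PNx replicate 6 (1.12) and without PNx replicates 1, 2 and 3 (1.27). For PNx+NaKtide against PNx it was −1.44 ± 0.57 (SE; edgeR BH-adjusted p-value 0.357), and −1.05 without PNx replicate 6. Its antisense partner A730085K08Rik moved otherwise in PNx replicates 1, 2 and 3, with 53.7, 81.6 and 50.2 CPM against 118 to 260 CPM in Control. In PNx replicate 6, where Abhd5 was highest, the partner was high too, at 409 CPM.

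G0s2 (ENSMUSG00000009633, chr1:193272161-193273217, minus strand), the inhibitor of ATGL, was low in the PNx libraries in which Plin1, Plin4 and Cidec were low and its target was high. Its 475 counts gave 2.37 to 13.4 CPM in Control (median 5.17), 0 to 45.3 in NaKtide (median 2.37), 0 to 99.6 in PNx (median 1.68) and 0.714 to 12.7 in PNx+NaKtide (median 1.25). PNx replicates 1, 2 and 3 held 0.739, 0 and 1.01 CPM, below all Control mice, and the zero allowed up to 1.21 CPM. The zero of NaKtide replicate 1 allowed up to 1.35 CPM. PNx against Control gave 1.54 ± 1.18 (log2, SE; edgeR BH-adjusted p-value 0.386), and −1.76 without PNx replicate 6.

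Lipe (ENSMUSG00000003123, chr7:25379527-25398710, minus strand) encodes hormone-sensitive lipase. The gene is also known to have a longer form made in testis from an upstream start, and counts per gene do not separate the forms. Its 2705 counts gave 14.2 to 46.0 CPM in Control (median 27.1), 23.9 to 250 in NaKtide (median 25.6), 13.3 to 350 in PNx (median 47.6) and 6.65 to 62.5 in PNx+NaKtide (median 29.8). Like Pnpla2 it was high in PNx replicates 1 and 3 (65.1 and 60.6 CPM, above all Control mice), and replicate 2 held 34.7 CPM, within the Control range. The log2 fold change of PNx against Control was 1.71 ± 0.72 (SE; edgeR BH-adjusted p-value 0.160), and 0.47 without PNx replicate 6. Beside it, 4732471J01Rik, which overlaps it on the other strand and had 27.6 times its counts, gave 0.54 ± 0.67 (SE; edgeR BH-adjusted p-value 0.605).

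Mgll (ENSMUSG00000033174, chr6:88724412-88828360, plus strand), the lipase of the last step, had 2503 counts. It held 29.5 to 59.6 CPM in Control (median 47.2), 23.0 to 175 in NaKtide (median 42.9), 9.29 to 300.0 in PNx (median 28.4) and 21.4 to 76.9 in PNx+NaKtide (median 30.2). PNx replicates 1, 2 and 3 (14.5, 9.29 and 22.2 CPM) lay below every Control mouse, as they did for Plin1, Plin4, Cidec and G0s2. PNx against Control gave a log2 fold change of 0.63 ± 0.63 (SE; edgeR BH-adjusted p-value 0.511), and −0.87 without PNx replicate 6.

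The first comparison asked whether kidney loss altered these genes. In PNx against Control, 0 of 9 genes passed a BH-adjusted p-value of 0.1 in edgeR, where 0.0766% of all 26116 genes tested did (20 genes, all lower). All 9 log2 fold changes were positive (0.63 to 2.51), with a median of 1.54 against 0.36 over all genes. With DESeq2 size factors in place of TMM these medians were 1.85 and 0.76, and the calls over all genes came to 7971 higher and 725 lower. At an unadjusted p-value under 0.05, 4 of 9 passed (Abhd5, Pnpla2, Lipe and Plin2, all higher), against 25.4% of all genes, 18.5% higher. DESeq2, the tool of the study's methods, called those same 4 genes higher, where it called 30.1% of all genes with a p-value, 26.6% higher. The adjusted p-values by DESeq2 were 0.0128 for Abhd5, 0.0251 for Pnpla2, 0.0296 for Lipe and 0.0432 for Plin2, and over all alternatives they ran up to 0.462, 0.548, 0.590 and 0.886. DESeq2 gave no p-value for Plin1, Plin4 and Cidec, for which its check for extreme counts withholds one.

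**Figure D2:**
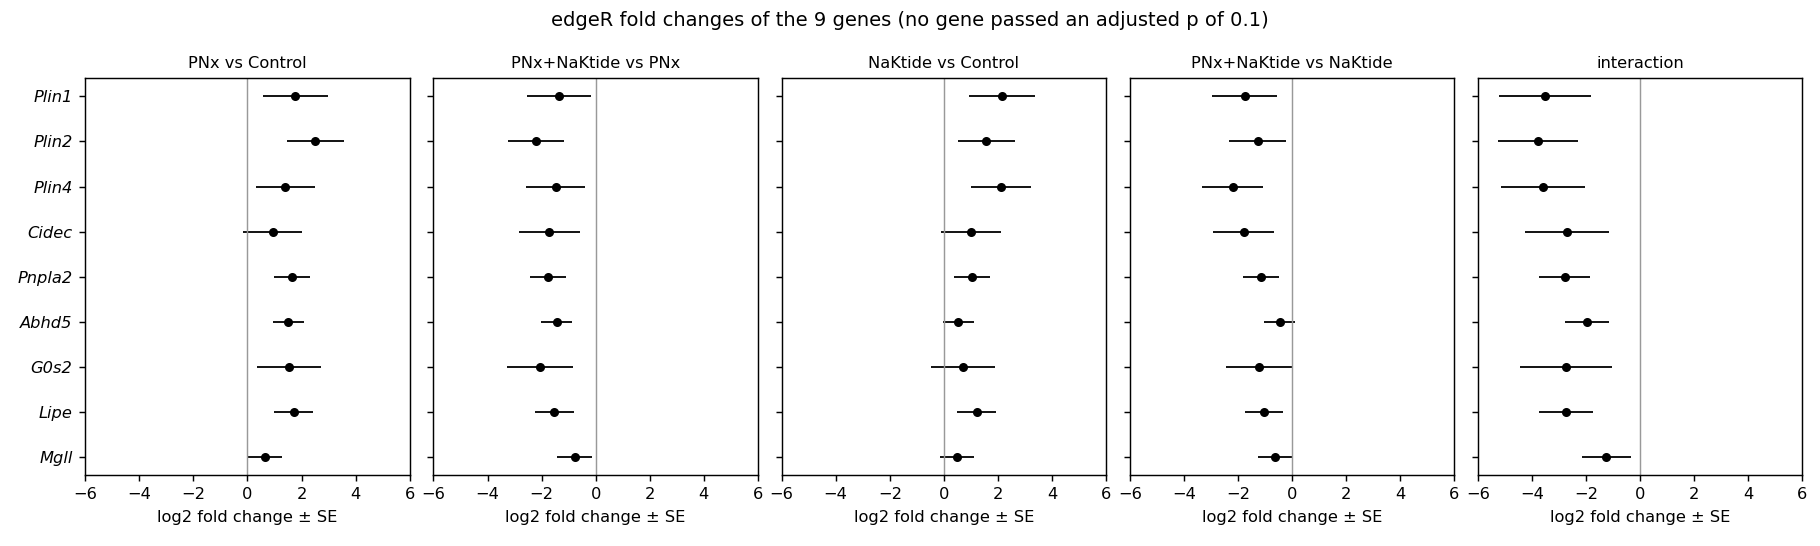
Points are edgeR log2 fold changes and bars are standard errors (horizontal axis) of the 9 genes in the 4 group comparisons and the interaction. All 9 lie above 0 for PNx vs Control and NaKtide vs Control and below 0 in the other 3, and no gene passed an adjusted p of 0.1.

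Which libraries entered decided the direction for 5 of the 9 genes. Without PNx replicate 6, the log2 fold changes of Plin1, Plin4, Cidec, G0s2 and Mgll were −1.79, −1.83, −2.49, −1.76 and −0.87, and those of Abhd5, Pnpla2, Lipe and Plin2 were 1.12, 0.48, 0.47 and 0.19. Without both PNx replicate 6 and NaKtide replicate 6, Cidec (−2.50, edgeR BH-adjusted p-value 0.0605) and Plin4 (−1.83, edgeR BH-adjusted p-value 0.0674) were called lower, where 21.8% of all genes were called, 6.38% lower. The adjusted p-value of Plin4 ran from 2.73e-03 to 0.705 over its alternatives. Without PNx replicates 1, 2 and 3, all 9 were positive (1.27 for Abhd5 to 3.22 for Plin2) and 0 passed. Leaving out PNx replicate 4 or PNx replicate 5 had edgeR call 4 of 9 higher, where 33.2% and 23.2% of all genes were called, 23.1% and 16.2% higher.

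**Figure D3:**
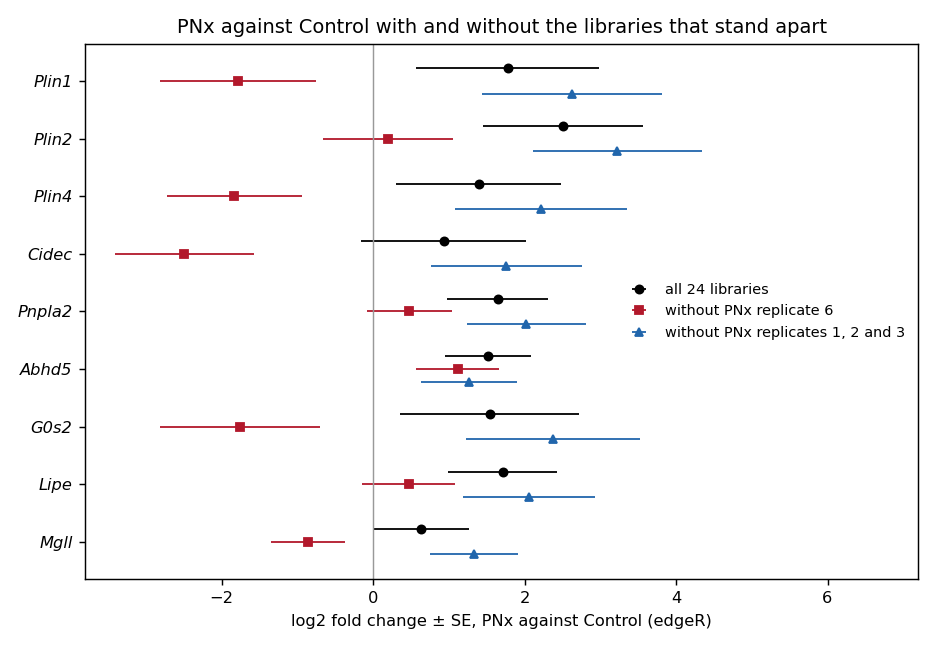
Log2 fold changes of PNx against Control with standard errors (horizontal axis) are drawn for each gene from all 24 libraries (circles), without PNx replicate 6 (squares) and without PNx replicates 1, 2 and 3 (triangles). The squares of Plin1, Plin4, Cidec, G0s2 and Mgll cross to the left of 0, and those of Plin2, Pnpla2, Lipe and Abhd5 do not.

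Inside the PNx group, Pnpla2, Abhd5 and Lipe parted from Plin1, Plin4 and Cidec. Mgll and G0s2, though of the lipolysis group, were low in PNx replicates 1, 2 and 3, Plin2 was not, and these 3 genes are left out of the ratio. The ratio of summed FPKM of Pnpla2, Abhd5 and Lipe to that of Plin1, Plin4 and Cidec, chosen after the values were seen and given without a test, was 6.58, 12.1 and 8.79 in PNx replicates 1, 2 and 3. It was 0.520, 0.413 and 0.298 in PNx replicates 4, 5 and 6 and 0.175 to 0.895 in the other 21 libraries (median 0.357). PNx replicate 6 had high levels of all 9 genes at a ratio inside that range and NaKtide replicate 6 at its lower end (0.175, the lowest of all 24 libraries), while PNx replicates 1, 2 and 3 had a ratio above that of every other library at a summed level of 157, 101 and 158 CPM, against a median of 185 CPM. Pnpla2 over Plin1 was 30.8, 63.1 and 71.3 in those 3 libraries and 0.576 to 4.31 in the other 21. G0s2 over Pnpla2 was 0.0650, 0 and 0.0998 there, and 0.607 to 1.65 in Control. Over the other 21 libraries it ran from 0 to 2.50, so all 3 values lay inside that range. Abhd5 over Pnpla2 was 0.212, 0.192 and 0.321 in PNx replicates 1, 2 and 3 and 0.0563 to 0.315 in the other 21 libraries. Replicates 1 and 2 thus lay inside that range and replicate 3 just above it.

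**Figure D4:**
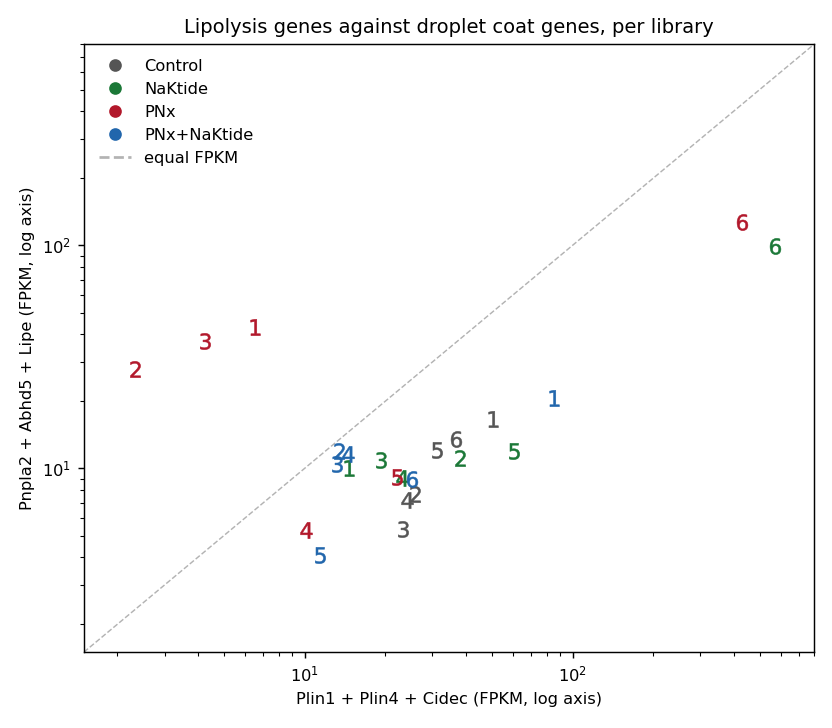
Each digit is a library (replicate number, coloured by group) placed by its summed FPKM of Plin1, Plin4 and Cidec (horizontal, log axis) and of Pnpla2, Abhd5 and Lipe (vertical, log axis). Only PNx 1, 2 and 3 lie above the dashed line of equal FPKM, and PNx 6 and NaKtide 6 lie far to the right below it.

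Marker levels moved with both patterns. In PNx replicates 1, 2 and 3 the adipocyte list summed to 276, 292 and 280 CPM, close to the median of all libraries, but its genes (those named here were picked after their values were seen) differed. Lep held 0.493, 0 and 1.01 CPM, below the Control range of 5.25 to 10.5 CPM. Cd36 (1.97, 0.808 and 1.01 CPM) and Pparg (1.72, 0.808 and 1.77 CPM) lay within their Control ranges of 0.583 to 7.40 and 0 to 4.32 CPM. Adipoq held 95.1, 141 and 88.6 CPM there, against 6.42 to 56.2 CPM in Control, and Acsl1 held 95.1, 84.0 and 107 CPM. Adipoq and Acsl1 thus made up most of each sum. Adrb3 held 1.23, 0.808 and 0.505 CPM, below the Control range of 4.67 to 16.7 CPM. Retn, Lgals12, Thrsp, Pck1 and Sncg held 0 to 1.62 CPM in these libraries. Aqp7 held 10.8, 4.04 and 10.6 CPM, against 1.85 to 6.02 CPM in Control. Those 3 libraries had the highest testis germ cell sums, and Prm2, a protamine of sperm, held 395, 404 and 436 CPM in them. Pnpla2, Lipe and Abhd5 are known to be expressed in testis as well as in fat. PNx+NaKtide replicates 2, 3 and 4 had the highest germ cell sums of their group (709, 888 and 990 CPM) and the highest lipolysis to coat ratios of all libraries after PNx replicates 1, 2 and 3, at 0.895, 0.790 and 0.794. PNx replicate 6, at 710 CPM of germ cell markers, had a ratio of 0.298. Of that sum Sycp3 held 412 CPM and Prm2 held 144 CPM, and in NaKtide replicate 6 Sycp3 held 652 of 666 CPM. The brown fat list moved in the same libraries, with its highest sums in PNx replicates 1, 2 and 3 (69.2, 63.8 and 35.3 CPM), followed by PNx+NaKtide replicates 2, 3 and 4 (31.2, 33.6 and 31.5 CPM), against a median of 8.84 CPM. So did the kidney list, with its highest sums in PNx replicates 1, 2 and 3 (336, 537 and 329 CPM). Next came PNx+NaKtide replicates 2, 3 and 4 (145, 128 and 153 CPM), against a median of 48.5 CPM. In NaKtide replicate 6 and PNx replicate 6, Lpl (409 and 884 CPM), Fabp4 (1009 and 1662 CPM) and Lep (105 and 128 CPM) were high together with the 9 genes. So were the sums of the endothelium list (529 and 751 CPM, against a median of 61.7 CPM) and of the fibroblast progenitor list (278 and 499 CPM, no other library above 105 CPM). The part of these cell types and tissues in the values of the 9 genes was not tested.

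**Figure D5:**
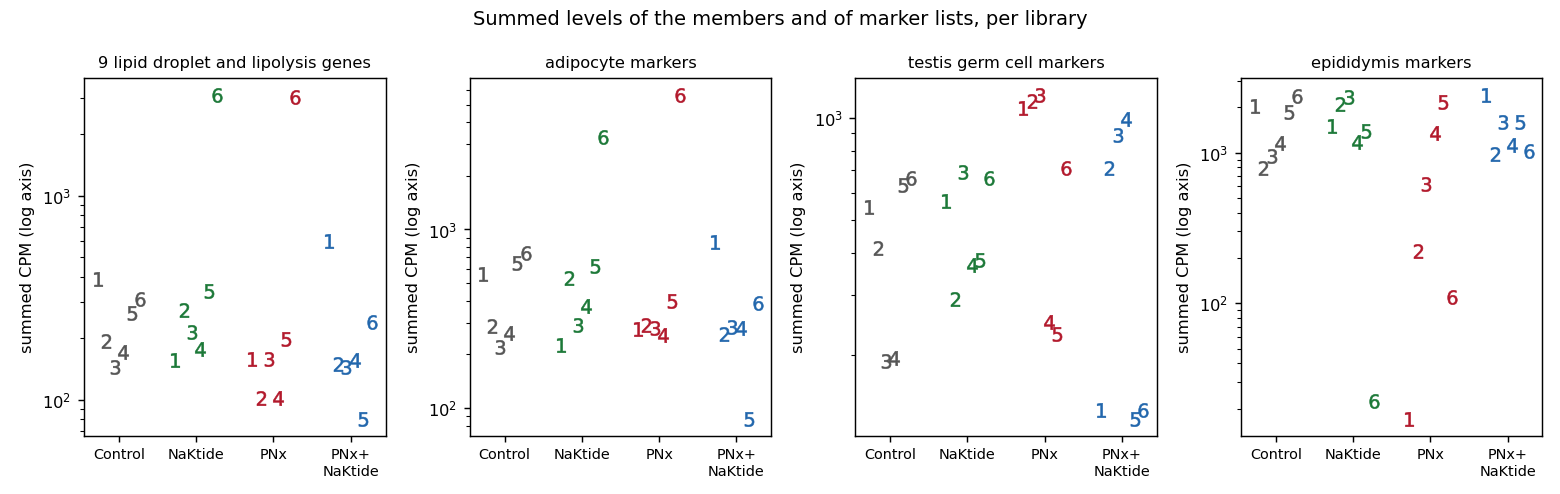
Summed CPM (vertical, log axis) of the 9 genes and of 3 marker lists is plotted for each library, with digits for replicate numbers, by group. NaKtide 6 and PNx 6 are highest for the 9 genes and the adipocyte markers, and PNx 1, 2 and 3 are highest for the testis germ cell markers.

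The second comparison asked whether NaKtide in adipocytes altered these genes in mice with kidney loss. With PNx+NaKtide set against PNx, 0 of 9 genes passed in edgeR, as did 0.0% of all genes. All 9 log2 fold changes were negative (−2.21 to −0.78), with a median of −1.53 against −0.37 over all genes. At an unadjusted p-value under 0.05, 4 of 9 passed (Pnpla2, Abhd5, Lipe and Plin2, all lower), against 12.7% of all genes, 8.6% lower. These are the genes of the first comparison, and both comparisons share the 6 PNx libraries. DESeq2 called 2 lower, Abhd5 (−1.86, adjusted p-value 0.0654) and Pnpla2 (−1.98, adjusted p-value 0.0759), where it called 5.88% of all genes, 4.82% lower, and their adjusted p-values ran up to 0.610 and 0.589 over the alternatives. Without PNx replicate 6 the log2 fold changes were 2.20 for Plin1, 1.74 for Plin4, 1.71 for Cidec, 1.24 for G0s2, 0.72 for Mgll and 0.11 for Plin2, and −0.29 for Lipe, −0.59 for Pnpla2 and −1.05 for Abhd5.

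The third comparison asked what NaKtide did in sham-operated mice. In NaKtide against Control, 0 of 9 genes passed, as did 0.0% of all genes, and 0 of 9 had an unadjusted p-value under 0.05, against 3.95% of all genes. DESeq2 called 0 of 9 and 0.0116% of all genes. The log2 fold changes were 0.47 for Mgll to 2.17 ± 1.22 (SE) for Plin1, with a median of 1.05 against 0.00 over all genes, and each edgeR BH-adjusted p-value was 1. NaKtide replicate 6 carried them: without it, Plin1 was at −0.039, Plin2 at −0.031, Lipe at −0.074, Pnpla2 at −0.055, Mgll at −0.16, Cidec at −0.46 and G0s2 at −1.28, with Abhd5 at 0.077 and Plin4 at 0.078.

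PNx+NaKtide against NaKtide gave 0 of 9 genes past the adjusted threshold (0.0% of all genes) and 0 of 9 at an unadjusted p-value under 0.05 (4.09% of all genes), and DESeq2 called 0 of 9 and 0.00776% of all genes. The log2 fold changes ran from −2.20 ± 1.12 (SE) for Plin4 to −0.46 ± 0.58 (SE) for Abhd5, with a median of −1.23 against 0.040 over all genes. NaKtide replicate 6 carried these too: without it the median was 0.013, Plin4 was at −0.17, Cidec at −0.32, Pnpla2 at −0.054 and Abhd5 at −0.0075, and Plin1 (0.45), Plin2 (0.33), Lipe (0.25), Mgll (0.013) and G0s2 (0.76) were positive. The interaction, the change by NaKtide in PNx mice minus that in sham-operated mice, had 0 of 9 genes past the adjusted threshold (0.0% of all genes), and 6 of 9 at an unadjusted p-value under 0.05, all lower, against 9.27% of all genes, 5.79% lower. It was −3.78 ± 1.49 (SE) for Plin2, −3.59 ± 1.56 for Plin4, −3.53 ± 1.70 for Plin1, −2.80 ± 0.94 for Pnpla2, −2.75 ± 1.02 for Lipe and −1.97 ± 0.81 for Abhd5, with edgeR BH-adjusted p-values of 0.488 to 0.537 among these. DESeq2 called Pnpla2 (−3.23, adjusted p-value 0.0984), where it called 0.365% of all genes, 0.182% lower, and over the alternatives this adjusted p-value ran up to 0.728. Without PNx replicate 6, 1 of 9 genes (Pnpla2, −1.64) had an unadjusted p-value under 0.05 in the interaction, against 2200 of all 25781 genes, 1171 of them lower. Abhd5 was then at −1.58, Lipe at −1.50, Plin2 at −1.47 and Plin4 at −0.37, and Plin1 (0.028), Mgll (0.25), G0s2 (0.53) and Cidec (0.71) were positive.

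Other genes of the droplet and of lipolysis, 37 in a fixed list, gave 0 calls in edgeR in each of these 5 contrasts, and DESeq2, which gave a p-value for 26 of them, called 11 in PNx against Control (30.1% of all genes), 5 in PNx+NaKtide against PNx (5.88% of all genes) and 0 in the other 3. In PNx against Control, 9 of 37 had an unadjusted p-value under 0.05, 8 of them higher, against 25.4% of all genes, and the median log2 fold change was 0.97. Leaving out PNx replicate 6 gave 4 higher and 5 lower at that p-value and a median of −0.44. Of all 25781 genes tested in that setting, 8054 had such a p-value (5726 higher and 2328 lower), and the median was 0.02. With all 24 libraries, the lowest p-values among the 37 were those of Aqp7 and Hilpda. Aqp7, the glycerol channel of adipocytes, gave 2.00 ± 0.61 (SE; edgeR BH-adjusted p-value 0.128). Hilpda, an inhibitor of ATGL, gave 2.03 ± 0.70 (SE; edgeR BH-adjusted p-value 0.136). Aqp7 ran from 1.85 to 6.02 CPM in Control and from 4.04 to 61.1 CPM in PNx. Plin5, a perilipin of oxidative tissue, was the 1 gene lower and is named after its value was seen, at −1.03 ± 0.42 (SE; edgeR BH-adjusted p-value 0.152). Between PNx+NaKtide and PNx, 5 of 37 had an unadjusted p-value under 0.05, all lower, against 12.7% of all genes, among them Aqp7 (−1.70 ± 0.60 SE) and Hilpda (−1.93 ± 0.70 SE), both with an edgeR BH-adjusted p-value of 0.357. At that p-value there were also 1 gene in NaKtide against Control (3.95% of all genes), 2 in PNx+NaKtide against NaKtide (4.09%) and 13, all lower, in the interaction (9.27%, 5.79% lower). The median was −1.02 in PNx+NaKtide against PNx, 0.48 in NaKtide against Control, −0.44 in PNx+NaKtide against NaKtide and −1.85 in the interaction. With PNx replicate 6 left out it was 0.23 in PNx+NaKtide against PNx and −0.29 in the interaction, and without NaKtide replicate 6 it was −0.049 in NaKtide against Control and 0.10 in PNx+NaKtide against NaKtide. Adora1, the adenosine receptor that restrains lipolysis, gave 3.32 ± 0.92 (SE; edgeR BH-adjusted p-value 0.672) in NaKtide against Control, with 465 CPM in its highest NaKtide library against a median of 6.69 CPM. Without NaKtide replicate 6, 0 of 36 listed genes tested had an unadjusted edgeR p-value under 0.05 in that contrast, against 773 of 25952 genes. In the interaction, Fitm2, a protein of droplet budding, gave −3.73 ± 1.27 (SE; edgeR BH-adjusted p-value 0.488).

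Across the 24 libraries, Spearman's rho of each gene with the mean standardised log2 CPM of all 9, itself included, was 0.893 for Plin4, 0.835 for Plin1, 0.824 for Mgll, 0.815 for G0s2, 0.803 for Cidec and 0.724 for Plin2. It was lower for ATGL, its co-activator and hormone-sensitive lipase, at 0.566 for Pnpla2, 0.516 for Lipe and 0.430 for Abhd5. Among 8376 other genes, those nearest to that mean were Cyp2e1 (0.909), Scd1 (0.906), Gsn (0.906), Npepl1 (0.876) and Hdac3 (0.874). Without PNx replicate 6 and NaKtide replicate 6 (22 libraries), these were 0.881, 0.878, 0.878, 0.840 and 0.837. Scd1, a fatty acid desaturase, and Cyp2e1 are expressed in white fat. The points share library depth and tissue make-up, and the values are a description.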

How the data were processed

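The sample labels gave each library's group and replicate number. By the labels and the study's methods, stranded mRNA libraries were made, and the authors trimmed reads with Trimmomatic 0.38, aligned them to GRCm38 with HISAT2 2.1.0 and counted them per gene with GenomicAlignments; the submitters' notes also name DESeq2 1.20.0. For the strand setting and the annotation release, the sources used here give nothing. The deposited raw counts were used for the tests, and the deposited FPKM for levels between genes and for alternatives; the FPKM of each gene equalled its count times a gene constant and a library constant in 100% of nonzero values (tolerance 1e-06). A deposited table of normalized counts was not used.

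Genes with more than 10 counts over the 24 libraries (26116) were fitted with edgeR 4.0.16 in R 4.3.3: TMM scaling, a robust quasi-likelihood F-test, 4 group means in 1 fit over all 24 libraries, and Benjamini-Hochberg (BH) adjustment over all genes, with calls at 0.1 after the study's methods. DESeq2 1.42.0, limma 3.58.1 (voom with sample weights, and log2(FPKM + 1) or log2(FPKM + 0.1)), other scalings and filters, only the compared groups, a replicate block, each library left out, and the groups of libraries named in the report left out were the alternatives. The fit was tested on simulated data. The common dispersion of 0.509 corresponds to a spread of 71.4% between mice. Counting intervals cover counting error only. The labels name no batch. Replicate libraries always differed by more than counting error (lowest chi-square per degree of freedom 1.57).

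The 9 genes were named by the rule in the report, whatever they showed, with the opposite-strand genes that share their exon bases, and of the fixed list the genes with the lowest p-values. Members and lists were chosen with earlier results of these data known. Identifiers were matched to GENCODE M21 (54165 of 54232, 99.9%), and promoters to RefSeq (GRCm38.p6).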

Additional observations from a re-analysis of the deposited data

Results flagged for a closer look

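For each of the 9 genes in each of the 4 groups (36 sets of 6 libraries), the highest and the lowest log2 CPM were compared with the rest by Dixon's ratio. The 9 genes share their libraries, so the sets are not independent, while the number given for chance takes them as independent. In 4 of the 36 sets, against 1.8 that chance alone would give, a library lay outside, and each time it was NaKtide replicate 6 at the high end: Plin4 at 1778 CPM against 47.3 to 154 CPM in the other NaKtide mice, Lipe at 250 CPM against 23.9 to 31.5 CPM, Pnpla2 at 149 CPM against 13.3 to 24.5 CPM, and Plin2 at 33.0 CPM against 1.97 to 4.84 CPM. That library held 3310 CPM of adipocyte and 5664 CPM of skeletal muscle markers, and their part in these values was not tested. PNx replicate 6 was not outside in this sense for any of the 9 genes, though it held 346 CPM of Plin1 against 14.8 CPM in the next PNx library. Dixon's ratio divides the gap by the range, which the low values of PNx replicates 1, 2 and 3 widen for genes such as Plin1. In edgeR no gene had an interaction past the adjusted threshold (2421 at an unadjusted p-value under 0.05), while DESeq2 called 94 genes, Pnpla2 among them. By voom with sample weights, 6662 genes were called, 3 of the 9 among them.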

How the results depend on the processing

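None of the 9 genes passed the adjusted threshold in the reported fit, and the number that passed depended on the tool, the scaling and the libraries; the cause was not tested. Calls among the 9 genes in PNx against Control (0 in the reported fit) came to 4 with DESeq2 size factors in edgeR, 4 with library size alone, 2 with filterByExpr, 2 with leaving out both PNx 6 and NaKtide 6, 4 with DESeq2 and 8 with voom with sample weights, and to 0 to 4 with 1 library left out. Over all genes these settings called 8696, 4102, 2159, 5575, 7764 and 16654 in turn, and up to 8645 with 1 library left out. The reported fit tested 26116 genes. Of the 8 voom calls, 3 were higher and 5 lower. Calls among the 9 genes in PNx+NaKtide against PNx (0 in the reported fit) came to 2 with DESeq2 and 5 with voom with sample weights. Over all genes these settings called 1514 and 11479. Calls among the 9 genes in the interaction (0 in the reported fit) came to 1 with DESeq2 and 3 with voom with sample weights, where 94 and 6662 of all genes were called. The 4 calls with 1 library left out came without PNx replicate 4 or PNx replicate 5, and the single call without PNx replicate 6 was Cidec.

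Calls among the 37 listed genes in PNx against Control (0 in the reported fit) came to 10 with DESeq2 size factors in edgeR, 7 with library size alone, 4 with filterByExpr, 7 with leaving out both PNx 6 and NaKtide 6, 11 with DESeq2 and 19 with voom with sample weights, and to 0 to 9 with 1 library left out. Calls among the 37 listed genes in PNx+NaKtide against PNx (0 in the reported fit) came to 5 with DESeq2 and 11 with voom with sample weights. Calls among the 37 listed genes in the interaction (0 in the reported fit) came to 9 with voom with sample weights. Calls among all genes in PNx against Control (20 in the reported fit) came to 0 with an adjusted p under 0.05, 8696 with DESeq2 size factors in edgeR, 4102 with library size alone, 1 with no filter, 2159 with filterByExpr, 1 with the replicate block, 0 with only the compared groups, 5575 with leaving out both PNx 6 and NaKtide 6, 0 with leaving out PNx 1, 2 and 3 together, 7764 with DESeq2, 16654 with voom with sample weights, 40 with limma on log2(FPKM + 1) and 7 with limma on log2(FPKM + 0.1), and to 0 to 8645 with 1 library left out. Calls among all genes in PNx+NaKtide against PNx (0 in the reported fit) came to 1514 with DESeq2, 11479 with voom with sample weights, 4 with limma on log2(FPKM + 1) and 4 with limma on log2(FPKM + 0.1). Calls among all genes in NaKtide against Control (0 in the reported fit) came to 3 with DESeq2, 2 with voom with sample weights, 1 with limma on log2(FPKM + 1) and 2 with limma on log2(FPKM + 0.1). Calls among all genes in PNx+NaKtide against NaKtide (0 in the reported fit) came to 2 with DESeq2 and 1 with limma on log2(FPKM + 0.1). Calls among all genes in the interaction (0 in the reported fit) came to 2 with the replicate block, 94 with DESeq2 and 6662 with voom with sample weights, and to 0 to 1 with 1 library left out. Without PNx replicates 4, 5 and 6 in turn, calls among all genes in PNx against Control came to 8645, 6031 and 3815, and without PNx replicate 1, 2 or 3 to 0.

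The log2 fold changes of single genes turned sign as follows; those not named kept their sign under the alternatives run. For PNx against Control, the replicate block turned Plin1 (−0.81), Plin4 (−0.91), Cidec (−1.50), Mgll (−0.20) and G0s2 (−0.51), leaving out both PNx 6 and NaKtide 6 turned Plin1 (−1.80), Plin4 (−1.83), Cidec (−2.50), Mgll (−0.87) and G0s2 (−1.77), voom with sample weights turned Plin1 (−3.29), Plin4 (−2.52), Cidec (−4.24), Mgll (−1.21) and G0s2 (−2.59), limma on log2(FPKM + 1) turned Plin1 (−0.23), Plin4 (−0.51), Cidec (−1.38) and G0s2 (−0.39) and limma on log2(FPKM + 0.1) turned Plin1 (−0.81), Plin4 (−0.68), Cidec (−2.12) and G0s2 (−1.02). Single libraries turned the sign only where the one left out was PNx replicate 6, over ranges of Plin1 −1.79 to 2.04, Plin4 −1.83 to 1.70, Cidec −2.49 to 1.19, Mgll −0.87 to 0.86 and G0s2 −1.76 to 1.89. For PNx+NaKtide against PNx, the replicate block turned Plin1 (1.12), Plin4 (0.74) and Cidec (0.45), leaving out both PNx 6 and NaKtide 6 turned Plin1 (2.21), Plin2 (0.11), Plin4 (1.75), Cidec (1.72), Mgll (0.72) and G0s2 (1.25), voom with sample weights turned Plin1 (3.13), Plin4 (2.04), Cidec (2.81), Mgll (0.83) and G0s2 (1.20), limma on log2(FPKM + 1) turned Plin1 (0.28), Plin4 (0.22) and Cidec (0.36) and limma on log2(FPKM + 0.1) turned Plin1 (0.79), Plin4 (0.34) and Cidec (0.97). Single libraries turned the sign only where the one left out was PNx replicate 6, over ranges of Plin1 −2.26 to 2.20, Plin2 −2.94 to 0.11, Plin4 −2.28 to 1.74, Cidec −2.59 to 1.71, Mgll −1.05 to 0.72 and G0s2 −2.79 to 1.24. For NaKtide against Control, leaving out both PNx 6 and NaKtide 6 turned Plin1 (−0.044), Plin2 (−0.034), Cidec (−0.46), Lipe (−0.073), Pnpla2 (−0.053), Mgll (−0.16) and G0s2 (−1.31), voom with sample weights turned Plin1 (−0.049), Cidec (−0.46), Mgll (−0.0091) and G0s2 (−1.57), the replicate block turned Cidec (−0.13) and G0s2 (−0.50), limma on log2(FPKM + 1) turned G0s2 (−0.36) and limma on log2(FPKM + 0.1) turned G0s2 (−0.97). Single libraries turned the sign only where the one left out was NaKtide replicate 6, over ranges of Plin1 −0.039 to 2.41, Plin2 −0.031 to 1.83, Cidec −0.46 to 1.21, Lipe −0.074 to 1.43, Pnpla2 −0.055 to 1.24, Mgll −0.16 to 0.64 and G0s2 −1.28 to 1.05. For PNx+NaKtide against NaKtide, leaving out both PNx 6 and NaKtide 6 turned Plin1 (0.46), Plin2 (0.34), Lipe (0.25), Mgll (0.010) and G0s2 (0.79) and voom with sample weights turned Lipe (0.0040) and G0s2 (0.18). Single libraries turned the sign only where the one left out was NaKtide replicate 6, over ranges of Plin1 −2.66 to 0.45, Plin2 −2.003 to 0.33, Lipe −1.36 to 0.25, Mgll −0.89 to 0.013 and G0s2 −1.95 to 0.76. For the interaction, the replicate block turned Plin1 (0.56), Plin4 (0.054), Cidec (0.57) and G0s2 (0.17), leaving out both PNx 6 and NaKtide 6 turned Plin1 (2.25), Plin2 (0.14), Plin4 (1.67), Cidec (2.18), Mgll (0.88) and G0s2 (2.56), voom with sample weights turned Plin1 (3.18), Plin4 (1.81), Cidec (3.27), Mgll (0.84) and G0s2 (2.76), limma on log2(FPKM + 0.1) turned Plin1 (0.025), Cidec (0.84) and G0s2 (0.79) and limma on log2(FPKM + 1) turned Cidec (0.20). Single libraries turned the sign only where the one left out was PNx replicate 6, over ranges of Plin1 −4.43 to 0.028, Cidec −3.59 to 0.71, Mgll −1.52 to 0.25 and G0s2 −3.49 to 0.53.

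The correlation of deviations from the group means had a median of 0.124 over the 36 pairs of mice that share a replicate number (−0.592 to 0.712, above 0.1 in 19 of 36), against −0.055 for other pairs, and 10 of 24 libraries correlated best with their own number, a hint of shared deviation from the data and not from the design. As the labels tie the numbers to nothing and not every pair was above 0.1, the replicate block was an alternative only. It left 0 of the 9 genes called in PNx against Control and 1 of all genes, and gave the turned signs listed above. At 679250 to 2979505 counts per library, Plin2 and G0s2 lie near the counting floor in many libraries, and 1 mouse can set a group mean. No explanation of the outlying libraries was tested.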
